A study of Homo sapiens with 4 samples.

Results

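CTCF peaks near the chromosome ends of K562 cells were examined in 4 ChIP-seq libraries. K562 is a human erythroleukaemia cell line. An end peak is a peak whose summit lies within 2 Mb of the first base of a chromosome or of its rounded GRCh37 end, for chromosomes 1 to 22 and X. By this rule 2345 of the 33862 peaks of the 4 lists were end peaks. After overlapping peaks of the 4 lists had been merged, they formed 1033 end regions of 13959 regions in all. The rule uses position alone and no measured value. No peak lay past a rounded end, 4 peaks had their summit within 5 kb of the 2 Mb limit, and no merged region was split by it.

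Each library came from cells that had received 10 µM aclarubicin or 10 µM daunorubicin for 4 h, with 2 biological replicates per drug. Untreated cells were not analysed here, and each comparison sets 1 drug against the other. The lists as deposited held 10633 and 10711 peaks (aclarubicin) and 5886 and 6638 peaks (daunorubicin), in the order of the replicate numbers, which holds for each pair of values below. Read totals are unknown, and a relative depth recovered from the peak statistics was 1 and 1.04 for the aclarubicin replicates and 0.997 and 0.814 for the daunorubicin replicates.

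CTCF is a zinc-finger protein that binds DNA and, with cohesin, fixes the anchors of chromatin loops. Next to the telomere repeats it is known to bind the promoters of the telomeric repeat RNA TERRA, and further in many chromosome ends are gene-dense and rich in G and C. Both drugs are anthracyclines, which slide between DNA bases and can evict histones; daunorubicin also poisons topoisomerase II and leaves DNA breaks, whereas aclarubicin acts on the enzyme without trapping it on broken DNA.

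End peaks were more numerous after aclarubicin than after daunorubicin, and the gap was wider at the ends than elsewhere. The aclarubicin libraries held 783 and 811 end peaks, and the daunorubicin libraries 372 and 379. Both aclarubicin values lay above both daunorubicin values, 2.12-fold apart on average. This is 1.09 in log2 units, where the replicates had a pooled SD of 0.03 (n = 2 per drug; exact two-sided permutation p = 0.3333, the smallest that 2 against 2 libraries can give). Over 2 Mb from an end the lists held 9849 and 9899 peaks under aclarubicin and 5511 and 6258 under daunorubicin, a 1.68-fold difference (log2 0.75, pooled SD 0.09). When all 4 lists were trimmed to equal length by rank, the log2 difference in end peaks was 0.21.

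End peaks therefore made up a larger part of the aclarubicin lists. Their share was 7.36% (95% Wilson interval 6.88 to 7.88) and 7.57% (7.09 to 8.09) under aclarubicin, and 6.32% (5.73 to 6.97) and 5.71% (5.18 to 6.29) under daunorubicin. The groups did not overlap, and the means differed by 1.45 percentage points against a pooled SD of 0.324 (n = 2 per drug; exact permutation p = 0.3333, two-sided). The difference was 0.395 points among peaks with a fold of at least 5 and 0.154 points when the window was narrowed to 0.5 Mb. In the 92 Mb of end windows the density was 8.51 and 8.82 peaks per Mb under aclarubicin and 4.04 and 4.12 under daunorubicin. Elsewhere it was 3.35 and 3.36 after aclarubicin against 1.87 and 2.13 after daunorubicin. The ends were thus denser in CTCF peaks than the remaining genome in each library. The log2 ratio of end density to the remaining density was 1.35 and 1.39 with aclarubicin against 1.11 and 0.95 with daunorubicin. That ratio was 0.34 higher under aclarubicin, against a pooled SD of 0.08 (n = 2 per drug; exact permutation p = 0.3333, two-sided), and this difference was 0.10 among peaks with a fold of at least 5.

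**Figure D1:**
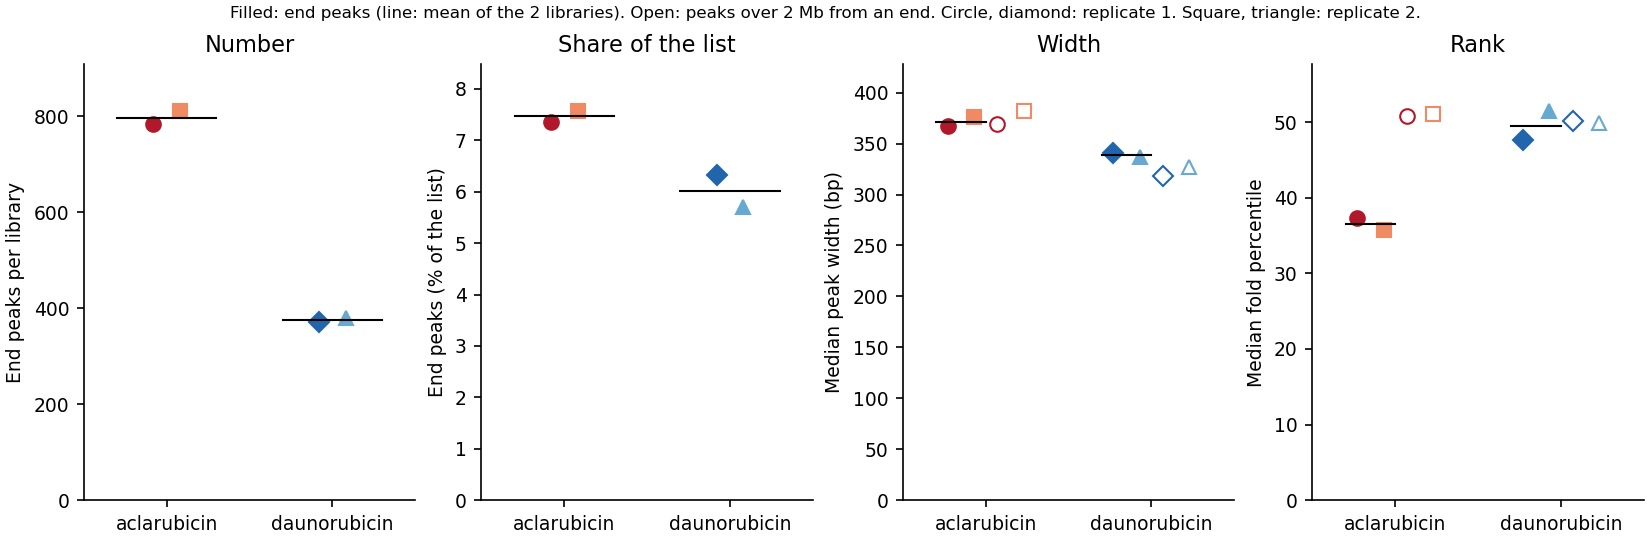
Number of end peaks, their share of the list in percent, their median width in bp and their median fold percentile within the list, for each of the 4 libraries (points), with the mean of the 2 libraries of a drug as a line. Open points are peaks over 2 Mb from an end; the end peaks of the aclarubicin lists sit at percentiles of 37.3 and 35.7, below every other median in the panel.

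The fold of a peak is the authors' enrichment over local background. Within each list it was turned into a percentile, with 100 for the strongest peak. The median percentile of end peaks was 37.3 and 35.7 in the aclarubicin lists and 47.6 and 51.5 in the daunorubicin lists. The aclarubicin end peaks were thus weak for their lists, and the daunorubicin end peaks lay near the middle of theirs. The drugs differed by -13.0 percentile points, aclarubicin minus daunorubicin, against a pooled SD of 2.09 (n = 2 per drug; exact permutation p = 0.3333, two-sided). It was -4.51 points within 0.5 Mb of an end, -7.57 within 5 Mb and -7.63 among peaks with a fold of at least 5, and -12.2 when all lists were trimmed to equal length. The value within 0.5 Mb lay inside its pooled SD of 8.62 (n = 2 per drug, exact permutation p = 0.6667, two-sided), so the drugs were not apart there. The median fold itself was 6.39 and 6.21 at end peaks under aclarubicin and 7.11 and 7.94 under daunorubicin. Away from the ends it was 7.63 and 7.58 after aclarubicin against 7.25 and 7.81 after daunorubicin.

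The local background beneath the peaks was higher at the ends in each library. It was recovered, as fragments, by solving the fold and p-value of a peak for both counts under a formula that is an assumption. Its median at end peaks was 7.64 and 7.91 (aclarubicin) and 5.25 and 4.33 (daunorubicin), and elsewhere 5.39 and 5.84 (aclarubicin) and 4.18 and 3.47 (daunorubicin). The median number of fragments over the summit was also higher at the ends: 47 and 50 against 44 and 46 under aclarubicin, and 41 and 41 against 36 and 33 under daunorubicin. Both numerator and background of the fold were thus raised at the ends, and the part of the background in the low ranks was not tested. Median peak width at the ends was 367 and 376 bp with aclarubicin against 340.5 and 337 bp with daunorubicin. That gap of 32.8 bp (pooled SD 4.83) stood beside 53 bp (pooled SD 7.91) away from the ends, where the medians were 369 and 382 bp after aclarubicin against 318 and 327 bp after daunorubicin. The gap at the ends was 57 bp among peaks with a fold of at least 5 and 91.3 bp in lists of equal length.

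Regions called in all 4 libraries allow the same places to be compared. At the 260 such end regions the median was 97.5 and 101 summit fragments under aclarubicin and 49.5 and 48 under daunorubicin. At the 3861 such regions elsewhere it was 75 and 79 with aclarubicin against 41 and 43 with daunorubicin. The excess of the ends over the remaining regions was 0.38 and 0.35 on the log2 scale under aclarubicin and 0.27 and 0.16 under daunorubicin, 0.15 lower under daunorubicin (pooled SD 0.06; n = 2 per drug; exact permutation p = 0.3333, two-sided). With only regions 2 to 10 Mb from an end as the comparison, this difference changed direction and became 0.06, and without daunorubicin replicate 2 it was -0.08. The matching excess in local background was 0.49 and 0.48 after aclarubicin against 0.32 and 0.24 after daunorubicin, 0.21 lower under daunorubicin (pooled SD 0.04; n = 2 per drug; exact permutation p = 0.3333, two-sided). Against regions 2 to 10 Mb from an end this difference was 0.02 on the log2 scale, in the same direction.

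Of the 1033 end regions, 260 (25.2%) were called in all 4 libraries, beside 29.5% of all regions. Another 295 (28.6%) were called in both aclarubicin libraries and in no daunorubicin library, beside 23.8% of all regions. Only 21 (2.03%) were called in both daunorubicin libraries and in no aclarubicin library, beside 3.17% of all regions. In what follows, a region called under 1 drug alone is one called in both libraries of that drug and in neither library of the other. A further 285 end regions (27.6%) were called in a single aclarubicin library only, against 20.9% of the regions elsewhere. In a single daunorubicin library only, 57 were called (5.52%, against 7.40% elsewhere). Of the others, 83 (8.03%, against 10.0% elsewhere) were called in both aclarubicin libraries and 1 daunorubicin library. In 1 library of each drug 17 were called (1.65%, against 2.82%), and 15 in 1 aclarubicin and both daunorubicin libraries (1.45%, against 2.26%). Over 2 Mb from an end 29.9% of regions were called in all 4 libraries, 23.4% in both aclarubicin libraries alone and 3.26% in both daunorubicin libraries alone. The 95% Wilson intervals of the ends and of the remaining regions did not overlap for the first of these classes (22.6 to 27.9 against 29.1 to 30.7). Nor did they for the next (25.9 to 31.4 against 22.7 to 24.2), and they did for the last (1.33 to 3.09 against 2.97 to 3.59). The intervals cover counting error only and neighbouring regions are not independent, so overlap or its lack is not a test.

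The regions called in both aclarubicin libraries were followed into the daunorubicin lists. At the ends 260 of 638 (40.8%, 95% Wilson interval 37.0 to 44.6) were called in both daunorubicin libraries, beside 46.7% of all such regions. Elsewhere 3861 of 8185 were (47.2%, 46.1 to 48.3). The difference was -6.42 percentage points (95% Newcombe interval -10.3 to -2.41), so the ends kept fewer; the interval covers counting error only, and neighbouring regions are not independent. It was -1.42 points within 0.5 Mb of an end and -0.99 points among peaks with a fold of at least 5. In the other direction, 260 of the 296 end regions called in both daunorubicin libraries were also called in both aclarubicin libraries (87.8%, 83.6 to 91.1), against 84.4% (83.3 to 85.4) elsewhere.

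The size of that gap depended on whether fold, -log10 p or local background was held equal. Within deciles of aclarubicin fold percentile the weighted difference was -0.29 points. It was -5.82 points when the deciles were of the -log10 p, and -10.8 points within deciles of local background. The share kept rose with fold at the ends as elsewhere: 5 of 56 end regions (8.93%) were kept in the lowest decile, 27 of 61 (44.3%) in the sixth and 64 of 66 (97.0%) in the highest. In the highest decile 821 of 917 regions elsewhere were kept (89.5%), and the 95% intervals of 89.6 to 99.2 at the ends and 87.4 to 91.4 elsewhere overlapped.

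**Figure D2:**
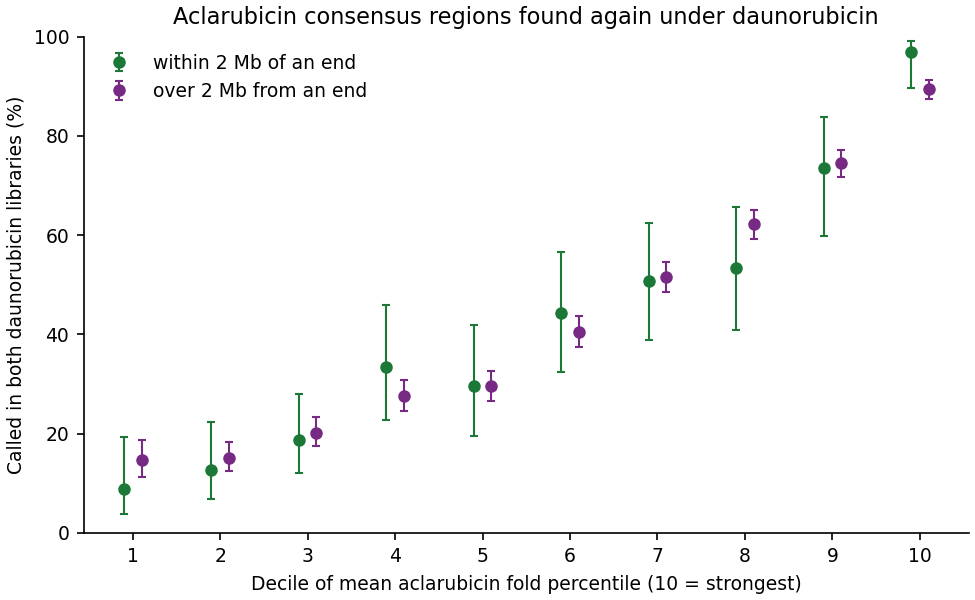
Percent of the regions called in both aclarubicin libraries that were also called in both daunorubicin libraries, by decile of the mean aclarubicin fold percentile, for end regions and for regions over 2 Mb from an end; bars are 95% Wilson intervals. Both sets climb with fold, from 8.93% to 97.0% at the ends and from 14.6% to 89.5% elsewhere, and lie close at most deciles.

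End peaks were also followed from list to list. In aclarubicin replicate 1, 81.6% of end peaks overlapped a peak of replicate 2, and in the reverse direction 78.7% did. Away from the ends these overlaps were 83.2% and 82.7%. Only 37.5 to 40.7% of aclarubicin end peaks overlapped a peak of a daunorubicin list, against 45.5 to 50.4% of the aclarubicin peaks elsewhere. The shorter daunorubicin lists were mostly found again: 79.6% and 78.10% of their end peaks overlapped the other daunorubicin replicate, and 79.3 to 87.1% overlapped an aclarubicin list. Across end peaks found in a pair of libraries, Spearman's rho of the fold was 0.919 between the aclarubicin replicates (639 peaks), 0.824 between the daunorubicin replicates (296 peaks) and 0.617 to 0.629 between drugs (294 to 330 peaks). The order of end peaks was thus more alike within a drug than between drugs; these are correlations across peaks, which share libraries and are not independent.

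The drug difference was smaller in the outermost stretch than further in. The cut at 0.25 Mb was chosen after the distance profile had been seen. Within 0.25 Mb of an end the lists held 66 and 75 peaks under aclarubicin and 47 and 43 under daunorubicin, a 1.57-fold difference (log2 0.65, pooled SD 0.11). Between 0.25 and 2 Mb they held 717 and 736 with aclarubicin against 325 and 336 with daunorubicin, a 2.20-fold difference (log2 1.14, pooled SD 0.03). The log2 drug difference was 0.49 larger in the inner zone, against a pooled SD of 0.11 (n = 2 per drug; exact permutation p = 0.3333, two-sided).

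The outermost peaks were also strong ones. Their median fold percentile was 68.6 and 59.2 after aclarubicin against 67.1 and 80.9 after daunorubicin. In the inner zone it was 35.2 and 33.8 with aclarubicin against 47.0 and 47.1 with daunorubicin. In each library the outermost peaks ranked above the inner ones. Their local background was lower, at 4.71 and 5.01 fragments (aclarubicin) and 4.30 and 3.47 (daunorubicin). In the inner zone it was 7.81 and 8.24 (aclarubicin) and 5.31 and 4.43 (daunorubicin). Of the outermost regions called in both aclarubicin libraries, 33 of 60 (55.0%, 42.5 to 66.9) were called in both daunorubicin libraries. In the inner zone 227 of 578 were (39.3%, 35.4 to 43.3), a difference of 15.7 points (95% Newcombe interval 2.58 to 28.3). That interval covers counting error only, and the cut was chosen after the distance profile had been seen, so the difference is a description.

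In finer steps, the aclarubicin density rose inward from 5.65 peaks per Mb in both replicates in the outermost 0.1 Mb to 9.39 and 9.48 between 1.5 and 2 Mb, then fell to 6.48 and 6.41 between 2 and 3 Mb and to 4.40 and 4.34 between 5 and 10 Mb. The daunorubicin density stayed between 3.22 and 4.87 peaks per Mb in each step up to 2 Mb. It was 3.26 and 3.28 between 2 and 3 Mb and 2.40 and 2.75 between 5 and 10 Mb. The drugs were closest in the outermost 0.1 Mb, with 26 and 26 peaks under aclarubicin and 20 and 19 under daunorubicin. They were furthest apart between 1 and 1.5 Mb, with 218 and 215 peaks against 83 and 85. That last step also had the lowest share of aclarubicin regions kept, 56 of 173 (32.4%, 25.8 to 39.7), whereas 16 of 22 (72.7%, 51.8 to 86.8) were kept in the outermost 0.1 Mb.

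**Figure D3:**
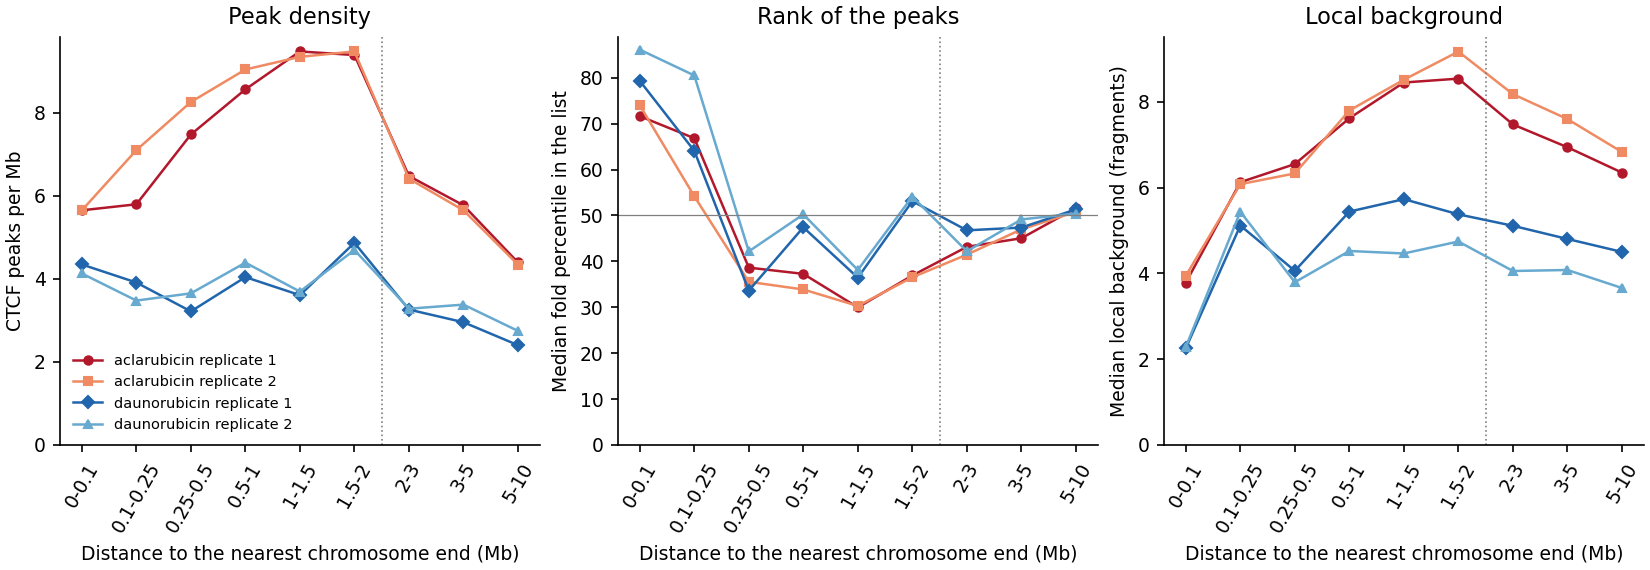
Peaks per Mb, median fold percentile within the list and median recovered local background in fragments, by distance to the nearest chromosome end in Mb, with a line for each library; the dotted line marks 2 Mb and the steps are unequal in width. The aclarubicin lines rise from 5.65 to over 9 peaks per Mb before dropping past 2 Mb, while the daunorubicin lines stay under 5, and the percentiles are highest next to the end.

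Within 15 kb of an end lay 8 regions. Long-arm ends were rounded to 0.01 Mb, so distances from them carry an error of up to 5 kb and do not order neighbouring regions. DNA this close to a telomere is, as background, built of blocks that several chromosomes share, so fragments of 1 copy can be assigned to another. How reads with several matches were treated is not given in the sources used here, and sharing between copies was not tested. At chr9:11264-11545, 11.4 kb from the end of the short arm, the fold was 26.8 and 28.0 with aclarubicin against 17.3 and 20.3 with daunorubicin, and the scaled ratio of daunorubicin to aclarubicin summit fragments was 0.457. At chr2:11360-11987 the fold was 20.7 and 22.03 after aclarubicin against 18.8 and 21.2 after daunorubicin, with 99 and 122 fragments against 87 and 76. The drugs overlapped in fold at the chromosome 2 region and were apart at the chromosome 9 region.

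At chr19:59117547-59118111, 12.1 kb from the end of the long arm, the fold was 24.9 and 24.6 with aclarubicin against 14.3 and 18.1 with daunorubicin. At chr5:13075-13604 it was 14.3 and 14.2 after aclarubicin against 11.1 and 9.32 after daunorubicin. Both regions were thus called in all 4 libraries with a higher fold under aclarubicin. At the long-arm end of chromosome 10, chr10:135523283-135523537 was called in aclarubicin replicate 1 only, with a fold of 8.06. At that of chromosome 15, chr15:102520520-102521067 had folds of 9.16 and 9.79 under aclarubicin and 6.77 in daunorubicin replicate 1. On the short arm of chromosome 18, chr18:11294-11747 was called under daunorubicin alone (folds 5.47 and 5.32), and chr18:12803-13375 in aclarubicin replicate 1 only (4.98). So 4 of these 8 regions were called in all 4 libraries, beside the 29.5% of all regions.

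The 6 end regions with the highest mean percentile over the 4 lists were chosen for standing at the top of each list. The highest mean percentile belonged to chr2:243153696-243154078, 46.1 kb from the long-arm end, with folds of 39.1 and 37.4 with aclarubicin against 37.8 and 37.1 with daunorubicin. Its summit held 808 and 785 fragments under aclarubicin and 345 and 303 under daunorubicin. The folds overlapped between drugs although the fragment numbers did not. Scaled for relative depth, the daunorubicin fragments were 0.46 of the aclarubicin ones.

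The other 5 leading regions were on chromosomes 14, 12, 20 and 9. At chr12:93988-94525, 94.3 kb from the end, the fold was 30.2 and 28.8 after aclarubicin against 24.3 and 23.5 after daunorubicin, with 362 and 326 fragments against 114 and 104. At chr20:62917192-62917785, 112 kb from the end, it was 27.3 and 26.1 with aclarubicin against 24.0 and 22.2 with daunorubicin, with 511 and 506 fragments against 189 and 167. Scaled fragments under daunorubicin were 0.359 and 0.396 of those under aclarubicin at these regions. On chromosome 14, chr14:106873289-106873967 had folds of 27.9 and 27.1 after aclarubicin against 25.2 and 26.4 after daunorubicin, with 554 and 601 fragments against 345 and 432. Near it, chr14:106765017-106765679 had the most fragments of these regions, 1043 and 996 with aclarubicin against 518 and 696 with daunorubicin. The scaled ratios of this pair, 0.775 and 0.688, were nearer to equal than those of the chromosome 12 and 20 regions. The last of the 6 was the chromosome 9 region described above.

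Among end regions called under aclarubicin alone, the strongest was chr4:190861728-190862144, 288 kb from the long-arm end, with folds of 15.0 and 14.2. Next came chr17:655403-655858 (folds 13.7 and 12.0), chr20:626053-626562 (13.8 and 11.4) and chr6:721984-722387 (12.2 and 12.3). All 4 lay in the upper part of the aclarubicin lists, at mean percentiles of 86.7 to 94.5. Absence from the daunorubicin lists means that no peak was called there, and the lists hold no value for such a place.

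End regions called under daunorubicin alone were few. The strongest was chr2:242017831-242018181, with folds of 9.68 and 12.4. It was followed by chr14:106440961-106441355 (7.15 and 10.99), chr2:1773563-1773881 (8.78 and 8.05) and chr19:57988875-57989292 (6.67 and 9.54). Their mean percentiles were 55.8 to 86.1. These are the 4 highest of only 21 regions, and the aclarubicin ones are the 4 highest of 295. The highest of a larger set tend to stand higher, so the percentiles of the drugs are not compared here.

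Percentiles of the 2 drugs come from lists of different length, so a shift of 0 does not mark an unchanged region. The 260 end regions called in all 4 libraries were therefore also ranked by fold among the 4121 regions called in all 4, an alternative added after the data had been seen. By that ranking 154 of 260 end regions (59.2%) stood higher under daunorubicin, against 1873 of 3861 elsewhere (48.5%), and their median shift was 3.58 points against -0.57. By percentile within the lists 97 of the 260 (37.3%) stood higher, against 1152 of the 3861 (29.8%), with median shifts of -2.78 and -10.3. The end regions thus stood higher relative to the remaining shared regions by either ranking, and the sign of their own shift depended on it.

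The named regions were chosen by their percentiles within the lists. The largest fall was at chr19:584278-584837, with folds of 15.4 and 12.8 after aclarubicin against 6.41 and 4.96 after daunorubicin. Its summit fragments were 245 and 205 with aclarubicin against 48 and 28 with daunorubicin, and its mean percentile fell by 70.3 points. Near-equal shifts, of -70.2 and -69.5 points, were found at chr10:135132136-135132651 (folds 15.1 and 12.9 against 5.64 and 6.0) and chr19:1044261-1044850 (11.2 and 11.3 against 4.71 and 5.39). Ranked among the shared regions, the 3 shifted by -68.1, -69.1 and -54.5 points. In these regions each daunorubicin fold lay below each aclarubicin fold, which follows from their choice as the largest falls.

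The largest rises went the other way. At chr14:105669306-105669704 the fold was 5.62 and 4.85 after aclarubicin against 10.1 and 12.0 after daunorubicin, a rise of 63.4 percentile points. At chr14:106986360-106987104 it was 7.83 and 5.59 with aclarubicin against 13.8 and 13.9 with daunorubicin, with 21 and 15 fragments against 61 and 62. At chr9:139588611-139589059 it was 3.47 and 5.03 after aclarubicin against 8.23 and 8.58 after daunorubicin. At the second of these regions more fragments were counted after daunorubicin even before scaling for depth, and the scaled ratio was 3.88. Ranked among the shared regions, the 3 rose by 76.0, 80.1 and 48.0 points. These regions were picked as extremes of the shift, so their values are a description.

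The ends differed widely in the number of regions. Of 46 ends, 41 held at least 1 region, with a median of 20. The short-arm ends of chromosomes 13, 14, 15, 21 and 22 held none; as background, these arms carry ribosomal DNA and satellite repeats and are not assembled in GRCh37. The 5 fullest ends held 302 regions (29.2%): 84 at 19p, 63 at 16p, 58 at 14q, 49 at 9q and 48 at 1p. At 19p the libraries held 60 and 67 peaks under aclarubicin and 34 and 36 under daunorubicin. At 16p they held 40 and 49 with aclarubicin against 25 and 17 with daunorubicin, and at 1p 34 and 36 against 18 and 12.

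At 37 of the 46 ends both aclarubicin libraries held more peaks than both daunorubicin libraries. Only 3p had more under daunorubicin, with 0 and 0 peaks under aclarubicin and 1 and 1 under daunorubicin. Among the 25 ends with at least 10 regions called in both aclarubicin libraries, the share kept under daunorubicin ran from 25.9% at 1p (7 of 27, 13.2 to 44.7) to 70.0% at 19q (7 of 10, 39.7 to 89.2). At 4p 15 of 23 were kept (65.2%, 44.9 to 81.19). The intervals of single ends are wide. Short-arm and long-arm ends kept similar shares, 113 of 271 (41.7%, 36.0 to 47.6) and 147 of 367 (40.1%, 35.2 to 45.1).

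**Figure D4:**
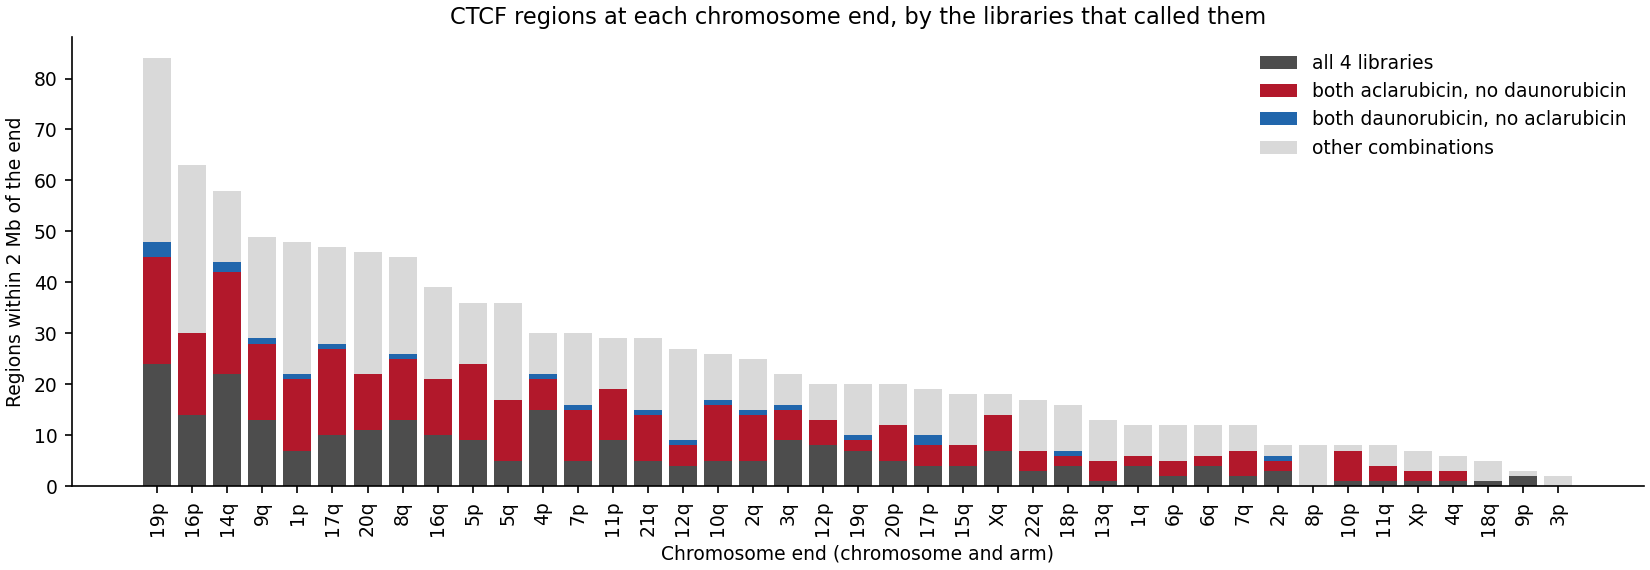
Number of merged CTCF regions within 2 Mb of each chromosome end, split by the libraries that called them; the 5 ends with none are left out. The 19p end leads with 84 regions, and regions of both daunorubicin libraries alone are at most 3 at any end.

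End peaks stood closer together than other peaks. The median distance from a summit to the nearest other summit of its list was 22.5 and 21.01 kb at the ends under aclarubicin and 41.6 and 48.7 kb under daunorubicin. Elsewhere it was 36.6 and 36.6 kb after aclarubicin against 60.8 and 60.2 kb after daunorubicin. A neighbour within 10 kb was found for 26.6% and 28.1% of end peaks under aclarubicin and for 20.7% and 18.5% under daunorubicin. Away from the ends the shares were 20.2% and 20.6% with aclarubicin against 13.7% and 13.7% with daunorubicin. In each library the ends were thus the more crowded part, and the daunorubicin lists were the sparser in both.

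Well-known genes lie in many of these windows, and 12 windows around such genes, entered from general knowledge of GRCh37, held 65 end regions. Of these 19 (29.2%) were called in all 4 libraries, 13 in both aclarubicin libraries and no daunorubicin library, and 2 (3.08%) in both daunorubicin libraries and no aclarubicin library, beside 29.5%, 23.8% and 3.17% of all regions. The share called in all 4 was thus near that of all regions. The libraries called 41 and 51 of them under aclarubicin and 27 and 26 under daunorubicin.

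The alpha-globin genes, which code for haemoglobin chains made by erythroid cells such as K562, lie at the end of 16p. The window 0.1 to 0.4 Mb from that end held 10 regions, of which 3 were called in all 4 libraries. At chr16:146772-147388 the fold was 17.0 and 16.01 after aclarubicin against 10.6 and 10.5 after daunorubicin, with 411 and 392 fragments against 109 and 98. At chr16:231234-231877 it was 17.1 and 16.8 with aclarubicin against 12.5 and 11.6 with daunorubicin, with 415 and 409 fragments against 150 and 116. At chr16:156917-157463 it was 11.2 and 12.0 after aclarubicin against 8.21 and 8.70 after daunorubicin. All 3 stayed in the daunorubicin lists with lower folds in both replicates, and the scaled fragment ratios were 0.29, 0.36 and 0.41. The other 7 regions were called in 1 library per drug at most.

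The window of FGFR3, a growth factor receptor, and NSD2, a histone H3 lysine 36 methyltransferase, at 4p held 8 regions, of which 6 were called in all 4 libraries and each library called 7. There chr4:1811519-1812342 had folds of 15.3 and 13.7 with aclarubicin against 10.1 and 9.35 with daunorubicin, whereas chr4:1731481-1731795 had 3.81 and 4.32 after aclarubicin against 5.94 and 7.06 after daunorubicin. Neighbouring regions of 1 locus thus moved in opposite directions of fold. At chr4:1731481-1731795 the summit fragments of the drugs overlapped, with a scaled ratio of 1.14. Local background there was 17.4 and 19.6 with aclarubicin against 11.8 and 10.6 with daunorubicin. Another, chr4:1914784-1915086, was called under daunorubicin alone (7.24 and 7.59).

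The window of STK11, a kinase that activates AMPK, at 19p held 15 regions, with 11 and 13 called under aclarubicin and 6 and 6 under daunorubicin. Its strongest regions included chr19:1279535-1280199, with folds of 11.5 and 10.9 with aclarubicin against 6.53 and 8.45 with daunorubicin. At chr19:1266898-1267510 the order of fold was opposite, with 6.58 and 6.80 after aclarubicin against 9.84 and 8.14 after daunorubicin. Its summit fragments were nevertheless fewer after daunorubicin, with a scaled ratio of 0.746. Local background there was 19.7 and 22.5 with aclarubicin against 11.5 and 8.34 with daunorubicin. The window of ELANE, PRTN3 and AZU1, which code for neutrophil granule proteins, held 6 regions and none in all 4 libraries, with 3 and 5 called under aclarubicin and 0 and 2 under daunorubicin.

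RTEL1 is a helicase that unwinds telomere loops. Its window at 20q held 4 regions, of which chr20:62427466-62427941 had folds of 13 and 12.8 with aclarubicin against 7.21 and 5.73 with daunorubicin, and chr20:62406473-62407020 had 7.78 and 7.92 against 6.43 and 9.03. The folds of the drugs were apart at the first and overlapped at the second. The window of TERT, the catalytic subunit of telomerase, held 1 region, chr5:1245035-1245565, called under aclarubicin alone with folds of 5.15 and 4.02.

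The D4Z4 window at 4q, named for a macrosatellite repeat known to bind CTCF, held 2 regions, both under aclarubicin alone. The stronger is the chromosome 4 region with folds of 15.0 and 14.2 given above. The window reaches 0.3 Mb from the end, and that region lies 288 kb from it, near the inner limit. Whether either region lies in the repeat was not tested. The window of ISG15, an interferon-induced ubiquitin-like protein, and AGRN, a basement membrane proteoglycan, at 1p held 5 regions, 2 of them in all 4 libraries. There chr1:968325-968644 was called under aclarubicin alone (5.89 and 5.47), and chr1:989882-990330 under daunorubicin alone (7.05 and 8.80). The pseudoautosomal window of X, which pairs with Y in male meiosis, held 7 regions over 2 Mb, of which 1 was called in all 4 libraries, 2 in both aclarubicin libraries alone and 4 in a single aclarubicin library only. The windows of HRAS (4 regions), SHANK3 (2) and IRF4 (1) held no region called in all 4 libraries.

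The end of 14q was described separately, after its values had been seen, because 2 of the 3 largest rises lay there. It holds the immunoglobulin heavy chain locus, which B cells rearrange. Of its 58 regions 22 were called in all 4 libraries, beside 29.5% of all regions. Ranked by fold among the 4121 shared regions, 18 of the 22 stood higher under daunorubicin, against 57.1% of the 238 at the other ends and 1873 of 3861 elsewhere. The median shift by that ranking was 8.34 points at 14q, 3.35 at the other ends and -0.57 elsewhere. By percentile within the lists, 14 of the 22 stood higher, against 83 of 238 at the other ends and 1152 of 3861 elsewhere, with median shifts of 0.76, -5.08 and -10.3 points. The median percentile was 87.6 under aclarubicin and 88.0 under daunorubicin at 14q, and 69.4 and 58.7 at the other ends. The scaled ratio of daunorubicin to aclarubicin fragments had a median of 0.773 at 14q, with a range of 0.307 to 3.88, 0.568 at the other ends and 0.622 elsewhere.

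Several 14q regions had more fragments under daunorubicin. At chr14:106597971-106598496 the summit held 41 and 39 fragments under aclarubicin and 84 and 105 under daunorubicin, with folds of 15.4 and 13.3 against 19.4 and 21.01. At chr14:107238788-107240004 it held 150 and 150 after aclarubicin against 176 and 204 after daunorubicin, with folds of 14.3 and 14.3 against 14.9 and 14.3. The fragments of the drugs did not overlap in either region, whereas the folds at the latter were nearly equal. Local background there was 9.54 and 9.58 with aclarubicin against 10.9 and 13.3 with daunorubicin, so it was higher as well. Falls occurred at the same end: at chr14:105635404-105635828 the fragments went from 157 and 128 under aclarubicin to 44 and 34 under daunorubicin, and the fold from 12.1 and 9.95 to 6.66 and 6.70.

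**Figure D5:**
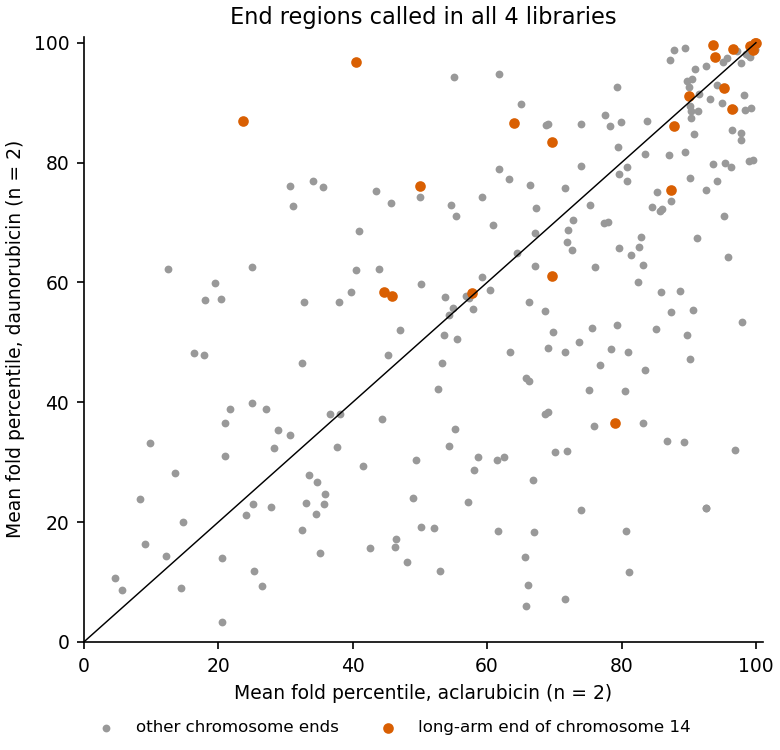
Mean fold percentile of each of the 260 end regions called in all 4 libraries, aclarubicin on the horizontal and daunorubicin on the vertical axis, with the 22 regions of the long-arm end of chromosome 14 in orange and equal percentiles as a line; the lists differ in length, so the line does not mark unchanged regions. Of the orange points 14 lie above the line, against 83 of the 238 grey ones.

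Of the 6 regions next to the 2 Mb limit, 5 were called in 1 or both aclarubicin libraries and in no daunorubicin library. Such calls are common: 23.8% of all regions were called in both aclarubicin libraries and no daunorubicin library. In a single aclarubicin library only, 27.6% of end regions and 20.9% of regions elsewhere were called. The 6 regions are therefore a description. Just inside it lay a region at 8q 1996 kb from the end (folds 3.31 and 3.53 under aclarubicin), chr17:79204190-79204733 (7.91 and 8.95 under aclarubicin) and chr16:1993819-1994147 (3.10 in aclarubicin replicate 2). Just outside lay chr6:169114077-169114402 (5.35 in aclarubicin replicate 2 and 7.38 in daunorubicin replicate 2), chr3:196013496-196014103 (5.23 and 4.43 under aclarubicin) and chr10:133521442-133521717 (6.18 in aclarubicin replicate 1).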

How the data were processed

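The data are 4 peak lists, 1 per library, as deposited by the authors without a header in narrowPeak columns. They hold a score, a fold ratio over background and p and q on the −log10 scale, all deposited by the authors for each peak and used to describe, rank and filter peaks. Bowtie2, Picard and bedtools are named in the submitters' processing notes, with GRCh37 and hg19 as the build; the peak caller, its threshold and any control library are not given in the sources used here. Coordinates are 1-based GRCh37 positions, and windows of genes were entered from general knowledge, with no annotation of that build used.

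The summit is column 2 plus column 10. Regions are peaks of the 4 lists merged on 1 shared bp. Fragments k over the summit and local background λ were solved from the fold, taken as (k + 1)/(λ + 1), and the Poisson p; this formula is an assumption. In 100% of peaks k came out whole to within 0.02. The lowest λ over the shortest width gave the relative depth. Libraries were compared by an exact two-sided permutation test of 2 against 2, which cannot go below 0.3333, and no test over libraries can therefore pass 0.05. Wilson and Newcombe intervals (95%) cover counting error only. The replicates are labelled biological; 0 peaks were identical between them.

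Named regions were the 6 highest in mean percentile called in all 4 libraries, the 4 highest under each drug alone, the 3 largest rises and falls, the 4 nearest an end (widened to all within 15 kb after seeing the data), 3 on each side of the limit, the 5 fullest ends and the 12 gene windows. The members, lists and tests were chosen with earlier results of these data known. Alternatives were other window sizes, −log10 q of at least 5 or 10, fold of at least 5, lists of equal length, other ranks (among shared regions added after seeing the data) and overlaps, left-out chromosomes or replicates, and the replicate number as a block. Python 3.11.15, numpy 2.4.6, pandas 2.3.3, scipy 1.17.1 and matplotlib 3.10.9 were used. The method was tested on simulated data.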

Additional observations from a re-analysis of the deposited data

How the results depend on the processing

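Of 239 recomputed values, 212 were labelled unchanged, 24 moved further and 3 changed direction. Counts were unchanged within 1.5 times the main value, and retention differences within their counting interval. Differences tested over libraries, and those in peak sharing and rank order, were unchanged if they kept their direction, whatever their size. Thus the log2 difference in end peaks counted as unchanged at 0.21 in lists of equal length, against 1.09. The end share did at 0.154 points in a 0.5 Mb window, against 1.45. The values of the replicate block equal the main ones and are part of the 212. Summit fragments at shared regions changed direction, from -0.15 to 0.0568 on the log2 scale, with regions 2 to 10 Mb from an end as the comparison. The median rank shift of the 260 shared end regions changed sign, from -2.78 by percentile within the lists to 3.58 when ranked among the shared regions and to 2.38 in lists of equal length (both added after seeing the data), and at 14q it went from 0.76 to 8.34 and 6.06. The retention difference was -1.42 points in a 0.5 Mb window, -0.99 at a fold of at least 5 and -10.8 within deciles of local background (an alternative added after seeing the data). At equal fold it was -4.20 points in a 1 Mb window, -5.36 in a 0.5 Mb window and -5.82 ranked by -log10 p. The number of end regions in all 4 libraries was 120, 58 and 563 in windows of 1, 0.5 and 5 Mb. Under aclarubicin alone it was 127, 48 and 572 in those windows, 178 at a fold of at least 5 and 102 in lists of equal length. Under daunorubicin alone it was 9, 3 and 51 in those windows and 48 in lists of equal length. Leaving out 1 replicate gave 323 to 444 regions under aclarubicin alone and 25 to 56 under daunorubicin alone, since fewer lists then had to call a region or to lack it. The share of end peaks among peaks within 10 Mb of an end differed by 3.70 points between drugs.

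Replicate numbers occur in both drugs, but the deviations of libraries with the same number were not alike (r = -0.08 across 4121 regions called in all 4 libraries, -0.13 across the 260 end regions). With the replicate block, the log2 difference in end peaks was 1.09 and the other differences tested over libraries were the same as without it; the smallest p it allows is 0.5. No test over libraries could pass 0.05, so the p-values say nothing about stability. Depth limits what the lists show, because a place without a peak has no value.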
